A study of Mus musculus with 677 samples.

Results

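The genes described here encode the proteins of the cytosolic ribosome. They were taken from the deposited expression table by symbol: Rpl or Rps followed by a digit, Rplp followed by a digit, or Rpsa, without the Rps6k kinases and without symbols that contain "-ps", the usual mark of a pseudogene. Of the 86 symbols of that form among 23420 genes, 83 averaged at least 1 TPM (a transcript level corrected for gene length that adds up to a fixed total per cell) over all cells and were kept. The lowest 3 kept were Rps19bp1 at 36.6 TPM, Rps4y2 at 75.1 TPM and Rpl7l1 at 91.4 TPM, and the 3 left out were Rpl39l at 0.0604 TPM, Rpl10l at 0.0373 TPM and Rpl3l, listed at 0. The set holds 49 symbols of the large subunit and its stalk and 34 of the small subunit. It includes 6 genes outside the standard set: the paralogues Rpl7l1, Rpl22l1, Rpl36al and Rps27l, the RPS4X-like copy Rps4y2, which RefSeq lists as Rps4l, and Rps19bp1, which encodes a protein that binds RPS19 and is no part of the ribosome. RefSeq annotates Rps4y2 as a transcribed pseudogene, although its symbol lacks the "-ps" mark.

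The cells were intestinal epithelial cells of C57BL/6 mice, profiled one by one with SMART-Seq2, a plate-based method that reads full-length cDNA. The series asked what loss of Atg16l2, a homologue of the autophagy gene Atg16l1, does to these cells. The 677 cells came from Atg16l2-/- mice (KO) and wild-type mice (WT) in runs 1 and 2, with the mouse code 1 or 2 within each genotype read as an animal (KO 1, KO 2, WT 1 and WT 2). The labels give no age, no description of the deleted allele and no statement that a code names the same mouse in both runs, so the p-values below measure the spread between 2 such codes per genotype. The authors had placed each cell in 1 of 9 types: stem cells, transit amplifying (TA) cells, early and late enterocyte progenitors, enterocytes, goblet, Paneth, enteroendocrine and tuft cells. There were 47 KO and 49 WT stem cells, 90 and 85 TA cells, 78 and 64 early and 32 and 43 late progenitors, 29 and 29 enterocytes, 35 and 35 goblet, 7 and 15 Paneth, 20 and 12 enteroendocrine and 4 and 3 tuft cells. Atg16l2 was listed at 0 in all KO cells and averaged 7.11 and 7.32 TPM in WT 1 and WT 2, where 20 and 18 cells were above 0. The 8 enterocyte markers summed to 23901 TPM in enterocytes, against 398 TPM in stem cells, and the 8 stem cell markers to 97.6 TPM in enterocytes, against 17520 TPM in stem cells. The sum of 7 T cell markers was 4.91 to 6.02 TPM in the KO animals and 4.39 to 5.04 TPM in the WT animals.

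A ribosome joins a small subunit, which reads the mRNA, to a large subunit, which forms the peptide bond. Each subunit is built in the nucleolus from ribosomal RNA and about equal amounts of each of its proteins, whose genes are among the most strongly expressed of a dividing cell. Their mRNAs begin with a C and a run of pyrimidines, the 5' terminal oligopyrimidine (TOP) motif, through which mTORC1 and LARP1 set their translation when nutrients change. In the intestine, crypt base stem cells and TA cells divide and grow, while enterocytes on the villus have left the cell cycle.

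The TOP motif lies at the start of the transcript, so starts of a few members are shown as 30 bases in GRCm38.p6 (RefSeq), 15 before and 15 from the annotated start, with the run of pyrimidines from the start in capitals. Rpl15 lies at chr14:18270972-18271001 on the minus strand, Rps18 at chr17:33955651-33955680 on the minus strand, Rpl38 at chr11:114668565-114668594 on the plus strand, Rps27 at chr3:90213634-90213663 on the minus strand and Rps19bp1 at chr15:80264292-80264321 on the minus strand. Rps19bp1 is shown as the member that is no ribosomal protein and has no such run.
Rpl15: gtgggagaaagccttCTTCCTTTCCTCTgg
Rps18: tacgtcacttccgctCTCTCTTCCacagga
Rpl38: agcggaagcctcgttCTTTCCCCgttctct
Rps27: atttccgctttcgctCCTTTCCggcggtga
Rps19bp1: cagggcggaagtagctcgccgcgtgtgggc
A C followed by at least 4 more C or T bases, read on the strand of the gene, stood exactly at the annotated start in 13 of the 62 members with a RefSeq promoter entry (20.97%) and in 3.01% of 27025 genes. Within 10 bases on either side of the annotated start it was present in 58.1% of those members and in 34.4% of all genes. An annotated start can lie some bases away from the one a cell uses, and a start without the run says only that these letters are not in that window.

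The members were highly and widely expressed. Their mean over all cells had a median of 1752 TPM, and 59 of the 83 were above 1000 TPM. Among the highest were Rps2 at 4874 TPM, a protein of the mRNA entry channel, Rplp0 at 4575 TPM, the base of the ribosomal stalk, Rps4x at 4440 TPM and Rpl41 at 3632 TPM, the smallest protein of the ribosome. The other stalk proteins, Rplp1 and Rplp2, which bring elongation factors to the ribosome, averaged 3500 and 1520 TPM. Rpsa, which is also known as the laminin receptor, averaged 2850 TPM, and Rpl38, known for its part in the translation of Hox mRNAs, 689 TPM. Of the 83, 77 were above 0 TPM in at least 95% of cells and 28 in every cell. The coefficient of variation of those 77 over cells was 0.374 to 0.759, with a median of 0.512. The other 6 were above 0 in fewer than 75% of cells: Rps4y2 in 72.97%, Rps19bp1 in 66.3%, Rpl34 in 65.1%, Rpl26 in 62.5%, Rpl30 in 55.8% and Rps27 in 32.1%.

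For 4 of these 6, the table has a row for a near-identical copy of the gene. In the GENCODE M21 annotation, 77 of the 83 members have a transcript elsewhere in the genome that matches at least 90% of their reading frame at 95% identity or more, most of them processed pseudogenes, but only 15 members have such a copy as a row of this table. In 5 of these 15, the copies held more of the summed value than the member's own row. Rps27 held 33.2% of its sum with Gm9846, the row RefSeq names Rps27rt. Rps15a held 28.9% of its sum with 2 pseudogenes, Rpl26 18.6% of its sum with Gm15772, Rpl34 9.78% of its sum with Rpl34-ps1 and Rpl30 8.01% of its sum with Gm12191. With the copy added, Rps27, Rpl34, Rpl26 and Rpl30 were above 0 in 99.6% to 99.9% of cells, and the coefficient of variation over cells was 0.637 for Rps27, against 2.08 for its row alone. The values of these 5 rows are uncertain as values of the gene.

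The pairs below are shown because few bases tell a gene from its copy. The reading frame of Rps27, on chromosome 3, and that of Rps27rt, on chromosome 9, have 0 differences, and their transcripts align with 0 mismatches. The frame, from GENCODE M21, is printed once for both with its start and stop codons included.
Rps27 and Rps27rt: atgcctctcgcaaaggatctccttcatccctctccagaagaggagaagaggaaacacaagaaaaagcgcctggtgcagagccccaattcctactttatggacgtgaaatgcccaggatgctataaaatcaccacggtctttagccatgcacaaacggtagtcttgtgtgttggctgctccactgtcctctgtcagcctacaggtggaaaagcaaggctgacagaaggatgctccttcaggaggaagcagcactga
Rpl34 on chromosome 3 and Rpl34-ps1 on chromosome 6 differ at 2 bases of the frame, T132C and C318G, with the gene's base first and positions counted from 1 at the A of the start codon. Rpl30 on chromosome 15 and Gm12191 on chromosome 11 differ at 1 base, G96A. The capital in each pair below marks T132C or G96A with 12 bases on each side.
Rpl34: agcacctaaatcTgcatgtggcgtg
Rpl34-ps1: agcacctaaatcCgcatgtggcgtg
Rpl30: gctgggctacaaGcagactctgaag
Gm12191: gctgggctacaaAcagactctgaag
Of the 677 cells, 459 had Gm9846 above 0 and Rps27 at 0, 1 had neither, and the remainder had Rps27 with or without Gm9846. Spearman's rho between the rows over cells was -0.51, as a description. For Rpl34 and Rpl34-ps1 rho was -0.12, and for the Rpl26 and Rpl30 pairs it was 0.16 and 0.08. In a cell, the Rps27 and Gm9846 rows tended to replace each other, whereas the Rpl26 and Rpl30 pairs did not.

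The share of TPM in the 83 genes was lower at each later stage of the absorptive lineage. It averaged 20.98% ± 2.06 in stem cells, 17.9% ± 2.98 in TA cells, 14.7% ± 1.42 in early progenitors, 13.2% ± 1.94 in late progenitors and 8.97% ± 0.860 in enterocytes (SD, n = 4 animals). By animal, enterocytes had 10.1% in KO 1, 8.55% in KO 2, 8.12% in WT 1 and 9.10% in WT 2, and stem cells had 20.5% in KO 1, 18.6% in KO 2, 21.4% in WT 1 and 23.5% in WT 2. Enterocytes and stem cells did not overlap, and enterocytes were lower in every animal. Neighbouring stages overlapped up to late progenitors: TA cells of KO 2, at 13.6%, were below all animals' early progenitors except those of the same animal, at 12.7%. Late progenitors, lowest in KO 2 at 10.7%, lay above all enterocyte values. The secretory types lay near the late stages, with 10.9% ± 2.28 in goblet cells, 10.3% ± 2.31 in enteroendocrine cells (32 cells) and 11.3% ± 2.68 in tuft cells (7 cells). The cell types were assigned by the authors on the same cells, so these differences are given without a test.

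**Figure D1:**
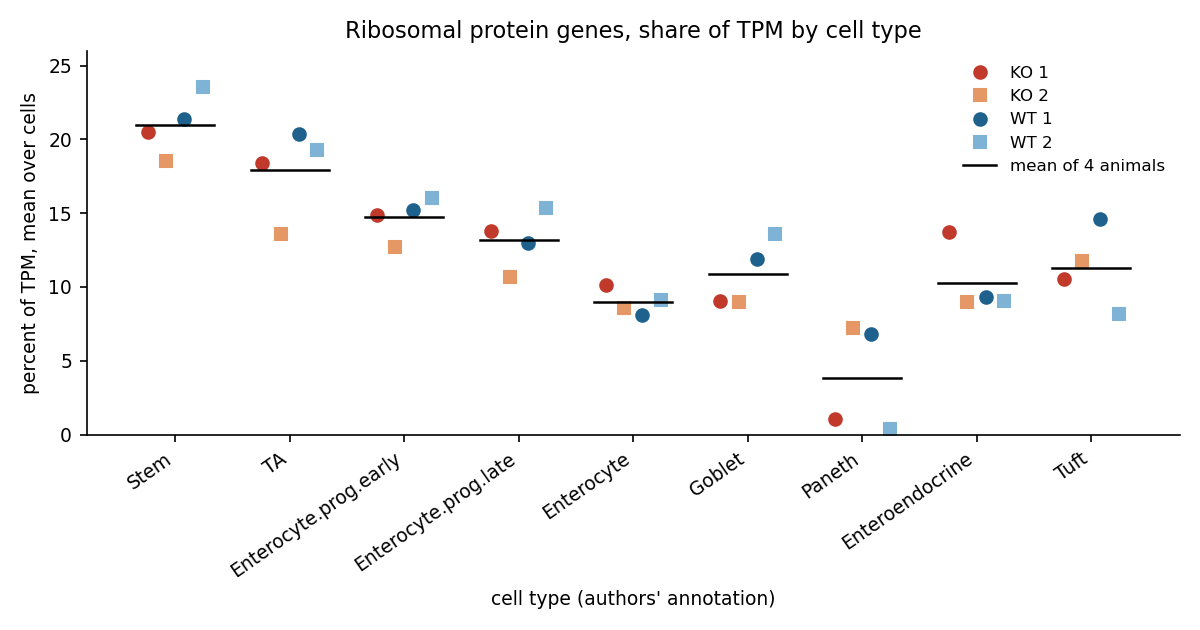
Share of TPM in the 83 ribosomal protein genes (y axis, percent, mean over the cells of an animal) in each of the 9 cell types (x axis), with a point per animal, KO 1 and KO 2 left of WT 1 and WT 2, and a line at the mean of the 4 animals. Stem cells sit highest at a mean of 20.98%, enterocytes at 8.97%, and the Paneth values are widely spread.

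Paneth cells, which secrete antimicrobial peptides in the crypt, had the lowest share and the widest spread. It was 1.03% in KO 1, 7.22% in KO 2, 6.79% in WT 1 and 0.344% in WT 2, and over the 22 cells it ranged from 0.107% to 21.3% with a median of 0.336%. In the same cells, 8 Paneth markers, among them lysozyme and defensins, held 43.6% of TPM in KO 1, 13.2% in KO 2, 30.5% in WT 1 and 41.5% in WT 2. The animals with the most marker TPM were those with the least ribosomal protein TPM. All TPM of a cell sum to the same total, so a fall in one group of genes and a rise in another cannot be told apart in these values.

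Compared with stem cells of the same animal, the median member was lower by more at each later stage on the log2(TPM + 1) scale. The medians were -0.24 in TA cells, -0.51 in early progenitors, -0.70 in late progenitors and -1.21 in enterocytes, and -0.98 in goblet cells. The animal medians for enterocytes ran from -1.40 to -1.02, with an SD of 0.193. Across the 6813 genes kept by a filter (a mean of at least 10 TPM and above 0 in at least 10% of cells, which all 83 members passed), the corresponding median was -0.28 in enterocytes and 0.11 in TA cells. Members whose 4 animals all lay below all 4 stem cell values numbered 14 of 83 in TA cells, where 3.73% of all kept genes did so. They numbered 51 in early progenitors (10.5% of kept genes), 58 in late progenitors (18%), 76 in enterocytes (28.1%) and 65 in goblet cells (22.5%), and no member lay wholly above in any of these types. Within run 1 alone the enterocyte median was -1.39 and 32 members lay wholly below, and within run 2 alone it was -1.17 and 75 did. Without the run 1 cells of KO 2, the set of cells that stands apart in the comparison by run, 76 members lay wholly below and the median was -1.18. The share of all kept genes wholly below is given for the pooled cells only. The counts within a run or without those cells are therefore not set against all genes.

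The members moved nearly as a block: 74 of 83 differed between enterocytes and stem cells by within 0.5 of the common median, and 68 were lower by at least 1 log2 unit. Rplp0 averaged 2806 ± 314.1 TPM in enterocytes and 6618 ± 256.01 TPM in stem cells (SD, n = 4), and Rps2 averaged 3071 ± 383 and 6664 ± 77.98 TPM. Rpsa had 1658, 1494, 1406 and 1288 TPM in enterocytes of KO 1, KO 2, WT 1 and WT 2, against 4638, 4338, 4057 and 3941 TPM in their stem cells. Every enterocyte value of Rpsa was below every stem cell value, and the difference of -1.54 varied little between animals (SD 0.053).

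Members that stood more than 3 scaled median absolute deviations below the common median were Rpl34 at -2.25 and Rps27 at -2.20, 2 of the genes with an expressed copy. With the copy added, Rpl34 differed by -1.21 ± 0.253 and Rps27 by -1.02 ± 0.302 (SD, n = 4), close to the median, and Rpl30 by -1.09 ± 0.184 against -0.67 for its row alone. These sums were chosen after the data had been seen. The next lowest were Rpl22 at -1.70 ± 0.301, Rpl36a at -1.69 ± 0.229 and Rpl12 at -1.66 ± 0.258 (SD, n = 4). Rpl22 encodes a protein that cells can lose without losing ribosomes and that also binds the mRNA of its paralogue. It had 128.3, 109.6, 71.5 and 98.9 TPM in enterocytes of KO 1, KO 2, WT 1 and WT 2, against 316.1, 364.8, 292.5 and 339.1 TPM in stem cells.

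**Figure D2:**
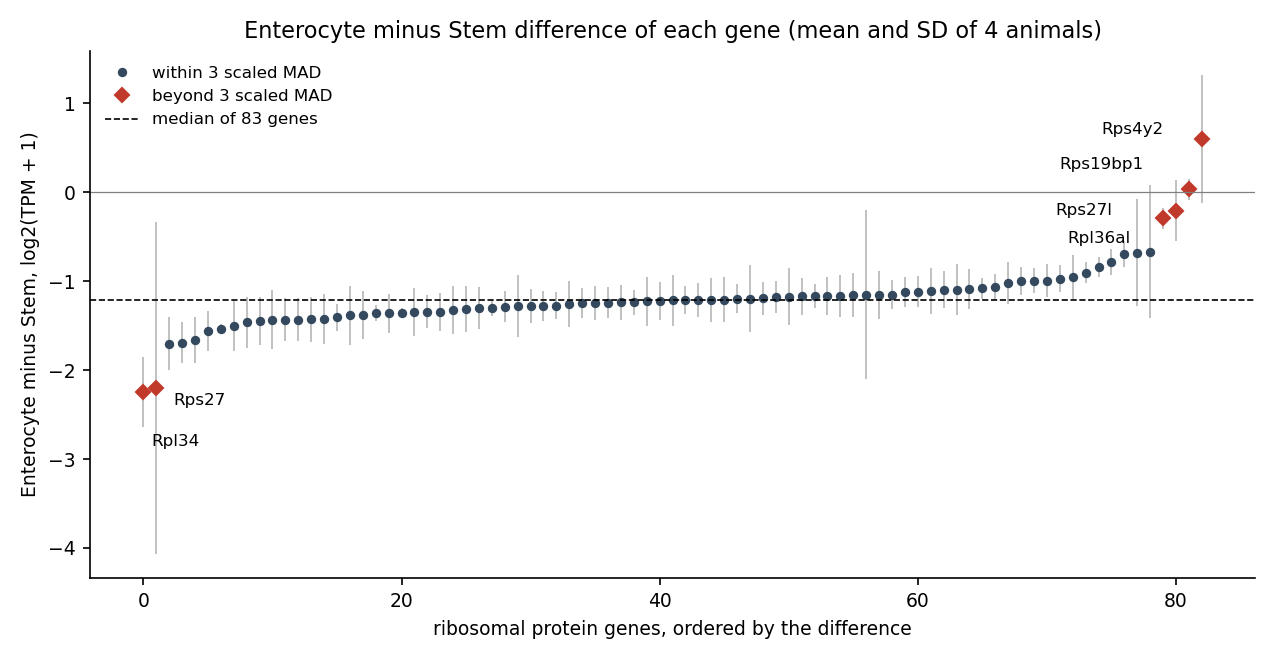
Enterocyte minus Stem difference on the log2(TPM + 1) scale (y axis) of each of the 83 genes in order (x axis), as the mean and SD of 4 animals, with the common median of -1.21 dashed. Rpl34 and Rps27 stand below the rest and Rpl36al, Rps27l, Rps19bp1 and Rps4y2 above it.

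The 4 members that stood more than 3 scaled deviations above the common median were all outside the standard set. Rpl36al, an autosomal paralogue of the X-linked Rpl36a, differed by -0.29 ± 0.119, Rps27l, a paralogue of Rps27 known as a p53 target, by -0.21 ± 0.345, Rps19bp1 by 0.03 ± 0.116 and Rps4y2 by 0.60 ± 0.719 (SD, n = 4). None of these 4 has a copy as a row of the table. For Rps4y2 the difference was 0.56 in KO 1, 0.89 in KO 2, -0.37 in WT 1 and 1.33 in WT 2, so its animals went both ways. The remaining 2 genes outside the standard set, Rpl7l1 at -0.68 and Rpl22l1 at -1.08, lay nearer to the block.

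Rpl36al came to equal Rpl36a along the lineage. Rpl36al was at 41.8% ± 3.84 of the Rpl36a level in stem cells, 51.5% ± 2.96 in TA cells, 76.9% ± 7.09 in early progenitors, 83.3% ± 5.82 in late progenitors and 109.98% ± 7.78 in enterocytes (SD, n = 4, with the Rpl36a copy added). The stem cell and TA ratios overlapped with no later stage. Rpl36al averaged 480 ± 46.7 TPM in enterocytes and 588 ± 41.3 TPM in stem cells, whereas Rpl36a averaged 437 ± 41.4 TPM in enterocytes and 1423 ± 224.2 TPM in stem cells. In goblet cells Rpl36al was at 109.8% ± 16.3 of Rpl36a. Rps27l was at 17.05% ± 1.82 of the summed Rps27 level in stem cells, 22.4% ± 3.52 in TA cells, 31.4% ± 1.46 in early progenitors, 33.05% ± 8.26 in late progenitors and 30.1% ± 4.26 in enterocytes, so this ratio did not differ beyond its spread over the last 3 stages. It was 19.9% ± 5.39 in goblet cells. Rpl22l1 was at 237.6% ± 58.9 of Rpl22 in enterocytes and at 152.5% ± 27.5 in stem cells. The animals ran from 184.7% to 290.2% in enterocytes and from 111.3% to 167.1% in stem cells, which did not overlap.

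Other genes of the translation machinery differed between enterocytes and stem cells to different degrees, and their counts are read against the 28.1% of all kept genes that lay wholly below. Of ribosomal proteins that carry other symbols, Gnb2l1 (RACK1) differed by -1.40 ± 0.202 and Fau, a ubiquitin-like protein fused to a small subunit protein, by -0.07 ± 0.082 (SD, n = 4). Fau averaged 2429 ± 205.9 TPM in enterocytes and 2560 ± 374.01 TPM in stem cells, which overlapped. All 6 elongation factors lay wholly below their stem cell values, with a median of -1.33. Eef1a1, which delivers tRNA, averaged 6257 ± 811 TPM in enterocytes and 13168 ± 448 TPM in stem cells. Of 18 other TOP mRNAs 16 lay wholly below (median -1.01), and of 21 initiation factors 12 did (median -0.68). Ribosome biogenesis factors showed the lowest median, -1.91, with 40 of 49 kept genes wholly below. Of 76 mitochondrial ribosomal proteins 11 lay wholly below, a smaller share than that of all kept genes, and 3 above, with a median of -0.31, near that of all kept genes.

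Between genotypes, no member passed the threshold in any of the comparisons below, each made with limma on log2(mean TPM + 1) per animal, 2 KO against 2 WT animals, with Benjamini-Hochberg adjustment over 6813 genes at 0.05. In the average of 6 cell types with both runs pooled, 0 members and 0% of all genes were called, with 18 members and 518 genes at an unadjusted p under 0.05. The median member differed by -0.26, against 0.03 for all genes, and 76 members were negative. Both KO animals lay below both WT animals in 49 members, where 17% of all genes did so. The animals' median members were 10.67 in KO 1, 10.37 in KO 2, 10.71 in WT 1 and 10.83 in WT 2 on the log2 scale, so KO 2 was lowest and KO 1 lay close to WT 1. Rps27 had the smallest member p (adjusted p = 0.230 in limma). The runs gave different pictures and are taken in turn.

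In run 1 the share of TPM in the 83 genes, over all cells, was 16.6% in KO 1, 9.52% in KO 2, 19.2% in WT 1 and 17.9% in WT 2. KO 2 stood apart from the other 3. In each of the 6 types it was below them: 12.9% against 23.2% to 26.97% in stem cells, 11.5% against 20.5% to 23.8% in TA cells, 9.20% against 16.5% to 19.3% in early progenitors, 8.23% against 14.98% to 17.1% in late progenitors, 3.95% against 9.35% to 12.2% in enterocytes and 7.52% against 12.7% to 15.2% in goblet cells. Some of these values rest on few cells, such as 4 stem cells and 5 enterocytes of KO 2 and 4 enterocytes of KO 1. The run 1 cells of KO 2 also had the most Rn45s, the 45S precursor of ribosomal RNA. It held 21.2% of TPM in KO 2, against 4.93% in KO 1, 7.42% in WT 1 and 4.69% in WT 2. Leaving Rn45s and a second abundant row, Gm20594, out of the total gave shares of 12.7% in KO 2, 17.8% in KO 1, 21.1% in WT 1 and 19.01% in WT 2, so KO 2 remained lowest. The part of Rn45s in the other differences was not tested. Fewer ribosomal protein transcripts per cell and more of other RNA cannot be told apart in TPM.

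**Figure D3:**
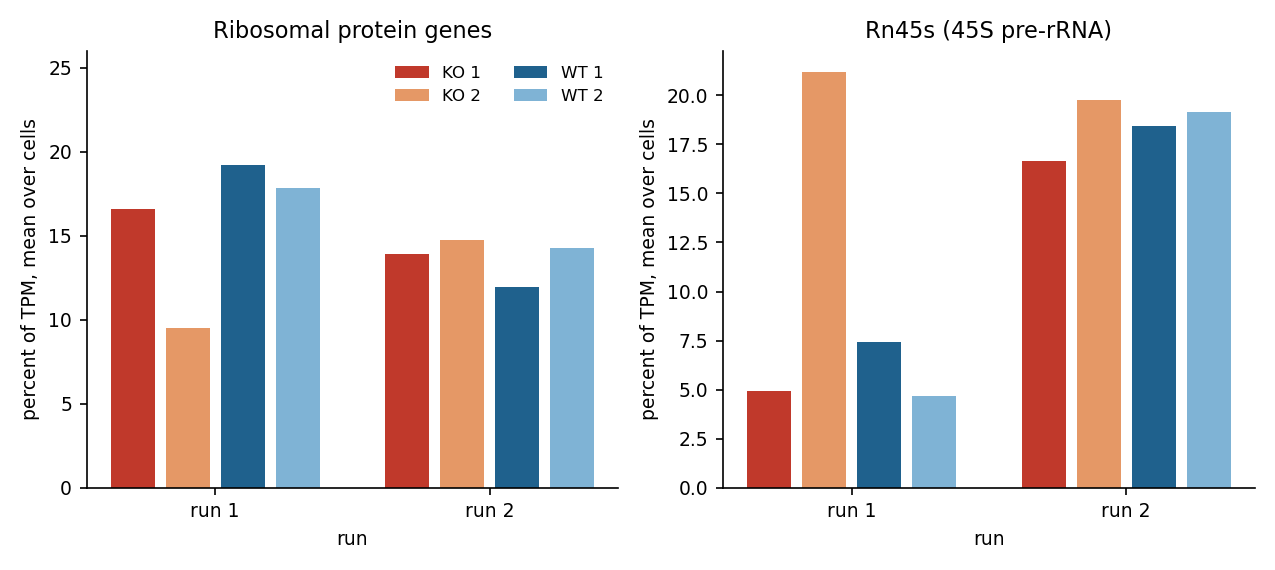
Share of TPM (y axis, percent, mean over cells) in the 83 ribosomal protein genes (left panel) and in Rn45s (right panel) for each animal in run 1 and run 2 (x axis), KO animals left of WT animals. KO 2 in run 1 has the lowest ribosomal protein share, 9.52%, and a Rn45s share of 21.2%, near the 16.6% to 19.8% of run 2.

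The limma comparison within run 1 called 0 members (0% of genes), with 11 members and 449 genes at an unadjusted p under 0.05. The median member differed by -0.71, against 0.09 for all genes. It was -1.16 for KO 2 alone and -0.18 for KO 1 alone against the WT animals, on the assumption that the lone KO animal varies like the WT pair. With KO 2 alone 70 members and 8.37% of all genes were called, and with KO 1 alone 1 member and 0.147% of all genes. With both KO animals, 80 of 83 were negative, and in 55 both KO animals lay below both WT animals (13.5% of all genes). The members with the smallest p among the 55 were Rps27, Rpl38, Rpl37a, Rpl36 and Rpl37. Rpl38 had 680 TPM in KO 1 and 353.3 TPM in KO 2, against 1083 TPM in WT 1 and 1369 TPM in WT 2, as the mean of the 6 types, a difference of -1.33 (SE 0.37, limma adjusted p = 0.696). Rpl36 had 760 and 399 TPM in KO 1 and KO 2, against 1163 and 1360 TPM in WT 1 and WT 2 (-1.18, SE 0.36). Rpl37a had 722 and 433 TPM in the KO animals, against 1130 and 1226 TPM in the WT animals (-1.05, SE 0.32), and Rpl37 had 426 and 257.9 TPM, against 618.4 and 674 TPM (-0.95, SE 0.30). In each of these both KO animals were below both WT animals, with KO 2 the lower. Rplp0 did not separate, with 5090 and 3677 TPM in the KO animals, against 5052 and 4826 TPM in the WT animals (-0.19, SE 0.43). Rpsa had 3198 and 2046 TPM in the KO animals, against 3122 and 2444 TPM in the WT animals (-0.15, SE 0.40). Of the other stalk genes, Rplp1 differed by -0.93 (SE 0.48) and Rplp2 by -0.78 (SE 0.33), and Rps28 differed by -1.26 (SE 0.44).

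The size of the run 1 difference went with the length of the gene. Over the 83 members, Spearman's rho between the KO minus WT difference and the coding length was 0.70, across genes that share libraries and are not independent. The 42 members of at most 456 coding bases had a median difference of -0.96 and the 41 longer ones of -0.49. The relation was present in both KO animals set against the WT mean, with rho of 0.78 for KO 1 (medians of -0.33 for shorter and -0.04 for longer members) and 0.57 for KO 2 (-1.52 and -0.99). It was also present between the runs of the same genotype: WT run 1 minus WT run 2 had rho of -0.78, with medians of 0.76 for shorter and 0.36 for longer members. All these differences hold the run 1 WT values, so they do not repeat the relation independently. KO 2 minus KO 1 in run 1, which holds no WT values, had rho of 0.26. Its medians were -1.15 for shorter and -0.96 for longer members. In run 2 the KO minus WT difference had the opposite sign, with rho of -0.33 and medians of 0.10 for shorter and 0.07 for longer members. The Enterocyte minus Stem difference had rho of -0.10. The part of length in the genotype difference was not tested beyond the alternative with the length trend removed, which gave a run 1 median of -0.22. That alternative used the annotated transcript length of all kept genes with a known length, not the coding length.

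**Figure D4:**
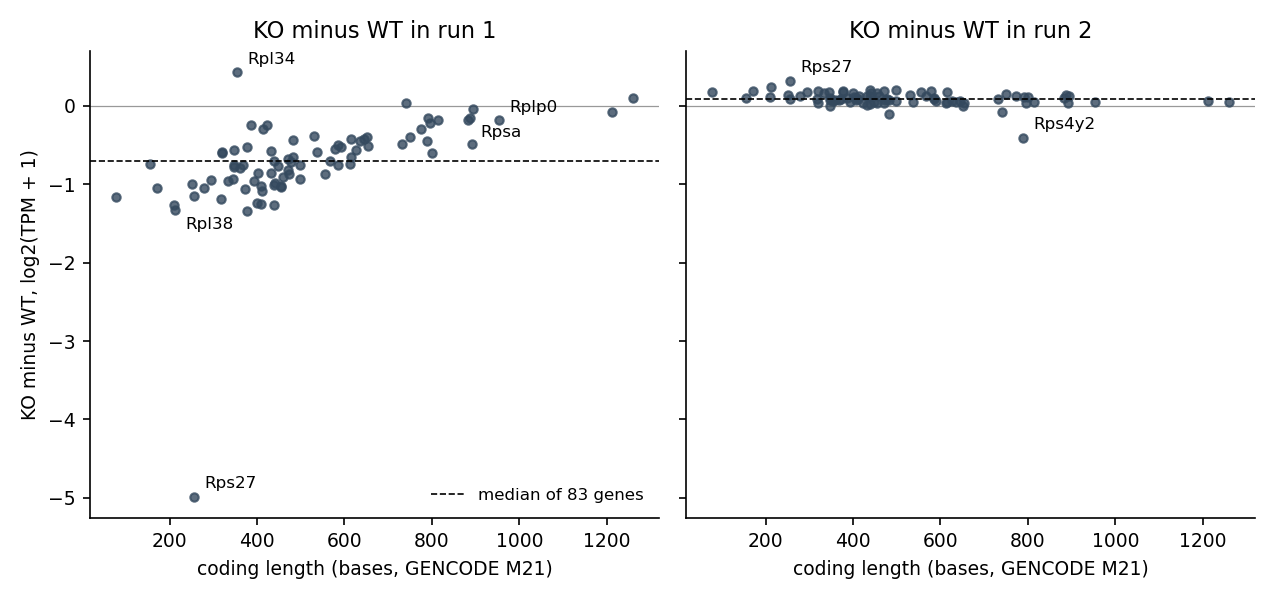
KO minus WT difference on the log2(TPM + 1) scale (y axis) against coding length in bases (x axis) for the 83 genes in run 1 (left) and run 2 (right), with the median dashed. In run 1 shorter genes lie lower, with Rpl38 at -1.33 and Rplp0 at -0.19, and Rps27 stands far below the rest, while in run 2 the genes lie near 0.09.

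In run 2 the order of the genotypes was the other way and small. The share of TPM was 13.9% in KO 1, 14.7% in KO 2, 11.9% in WT 1 and 14.2% in WT 2, so the groups overlapped. limma called 0 members, where 0.103% of all genes were called, and 0 members were at an unadjusted p under 0.05. The median member differed by 0.09, against -0.03 for all genes, and 79 of 83 were positive. Both KO animals lay above both WT animals in 6 members (13.7% of all genes) and below in Rpl7l1, which differed by -0.08 (SE 0.17). Of these 6, the 5 with the smallest p were Rpl12 (0.20, SE 0.13), Rps25 (0.19, SE 0.13), Rps14 (0.17, SE 0.13), Rpl31 (0.17, SE 0.13) and Rps12 (0.17, SE 0.13), the smallest limma adjusted p being 0.948 for Rpl12. Rps25 had 917 and 990 TPM in KO 1 and KO 2, against 817 and 853 TPM in WT 1 and WT 2. Members more than 3 scaled deviations from the run 2 median were Rps4y2 at -0.41 (SE 0.35) and Rpl21 at -0.10 (SE 0.14) below it and Rps27 at 0.32 (SE 0.77) above it, and on this scale the genotypes overlapped in all 3.

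The difference between the runs was tested within each animal code (limma on run 1 minus run 2). It called 0 members (0% of genes), with 12 members at an unadjusted p under 0.05 and a smallest member adjusted p of 0.862. The median member differed by -0.82, against 0.10 for all genes. Run 1 minus run 2 was 0.40 in KO 1 and -0.86 in KO 2, against 0.70 in WT 1 and 0.38 in WT 2 for the median member, so KO 1 overlapped with the WT animals and KO 2 did not.

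Rps27 departed from all other members in run 1, and its values differed between the runs as well as between the genotypes of run 1. As the mean of the 6 types it had 384 TPM in KO 1 and 96.0 TPM in KO 2, against 1324 TPM in WT 1 and 1920 TPM in WT 2 in run 1. In run 2 it had 168.7 and 123.3 TPM in KO 1 and KO 2, against 40.9 and 104.7 TPM in WT 1 and WT 2. The genotypes did not overlap in either run and lay in opposite orders in these means, while on the log2 scale, averaged over types, they overlapped in run 2. The WT cells of run 1 were the highest. The run 1 difference of -4.98 (SE 0.48) was 11.2 scaled deviations below the member median and did not pass the threshold (limma adjusted p = 0.1599). With the runs pooled it was -2.86 (SE 0.34), which did not pass the threshold. Leaving out KO 1 or KO 2, which leaves a lone KO animal, gave limma adjusted p = 0.042 and 0.0194, and leaving out WT 1 or WT 2 gave 0.145 and 0.694. Over all 22 alternatives the adjusted p ran from 5.19e-07 to 0.82, and 6 passed. The test of run 1 minus run 2 gave -5.30 (SE 4.12, limma adjusted p = 0.909).

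The mean level of its copy did not show this pattern. Over all cells of an animal, Gm9846 averaged 1212 TPM in KO 1 and 853 TPM in KO 2, against 1049 TPM in WT 1 and 977 TPM in WT 2 in run 1, and 1142 and 1252 TPM in the KO animals, against 1057 and 1226 TPM in the WT animals in run 2. The share of cells with Rps27 above 0 was 35.6% and 21.2% in KO 1 and KO 2, against 60.98% and 71.3% in WT 1 and WT 2 in run 1, and 21.2% and 16.5% in the KO animals, against 8.14% and 21.3% in the WT animals in run 2. The sum of both rows was 1686 and 971 TPM in the KO animals, against 2457 and 2815 TPM in the WT animals in run 1. In run 2 it was 1330 and 1419 TPM in the KO animals, against 1105 and 1317 TPM in the WT animals. On the log2 scale the sum differed by -1.09 (SE 0.40, limma adjusted p = 0.696) in run 1 and by 0.18 (SE 0.15) in run 2, near the member medians of -0.71 and 0.09, and by -0.50 (SE 0.16) with the runs pooled. The paralogue Rps27l, which has no such copy, differed by -1.15 (SE 0.58) in run 1. Rpl34 also depended on its copy: its row differed by 0.43 (SE 0.32) in run 1, and the sum with Rpl34-ps1 by -1.48 (SE 0.60). Rpl34-ps1 itself averaged 1642 and 380.7 TPM in KO 1 and KO 2, against 2244 and 2270 TPM in WT 1 and WT 2 in run 1.

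**Figure D5:**
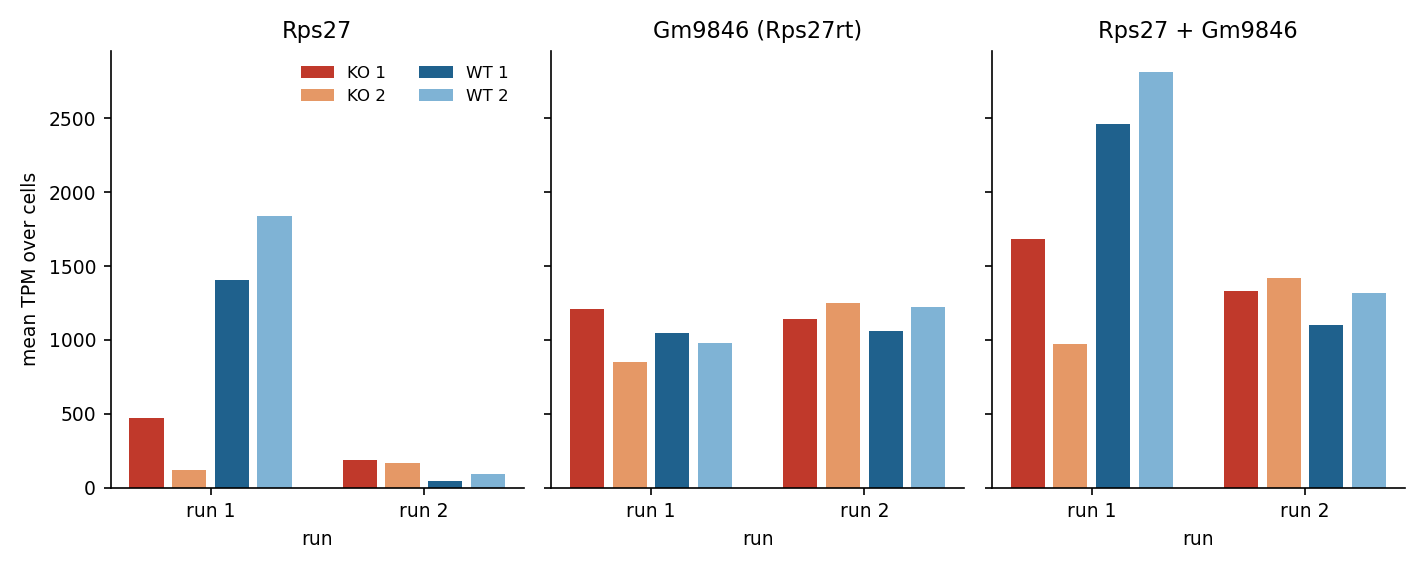
Mean TPM over cells (y axis) of Rps27, of its copy Gm9846 (Rps27rt) and of their sum, for each animal in run 1 and run 2 (x axis), KO animals left of WT animals. Rps27 is highest in WT 1 and WT 2 of run 1, at 1409 and 1838 TPM, while Gm9846 stays between 853 and 1252 TPM.

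By cell type with both runs pooled, limma called 0 members in each of the 6 types. The median member differed by -0.21 in stem cells, where both KO animals lay below both WT animals in 52 members (15.6% of all genes, 0% called). It differed by -0.36 in TA cells with 56 such members (13.5% of all genes, 0% called), where Rps27 had an adjusted p of 0.133 in limma. Without KO 1, 49 members and 2.69% of all genes were called in TA cells, and without KO 2, 1 member and 1 gene in all, with a lone KO animal in each fit. It differed by -0.22 in early progenitors with 51 members (13.5%, 0% called) and by -0.27 in late progenitors with 30 members (19.7%, 0% called). In enterocytes it differed by 0.10, and both KO animals lay above both WT animals in 25 members (18.4% of all genes, 0% called), but without KO 1 the median was -0.021. In goblet cells it differed by -0.53, with 74 members below (19.7% of all genes, 0.0147% called). At an unadjusted p under 0.05 there were 46 members among 412 genes in goblet cells, 20 among 531 in TA cells and 2 among 499 in enterocytes, and 14, 14 and 5 members in stem cells and in early and late progenitors. These values pool the runs in unequal parts: goblet cells of WT 1 were 10 from run 1 and 3 from run 2, stem cells of KO 2 were 4 and 14, and TA cells of KO 2 were 29 and 14. Goblet cells of KO 1 also held the most Paneth marker TPM, 8.93%, with 0.369% in KO 2, against 2.15% in WT 1 and 0.459% in WT 2. Without cells that had over 3% Paneth marker TPM, the goblet median was -0.43, with 0 members called. A moderated F test in limma of whether the genotype difference varied over the 6 types called 0 members (0.0147% of all genes). The smallest member adjusted p of this F test was 0.313, for Rpl17. It put 44 members at an unadjusted p under 0.05. That count is not set against all genes here, so it is not read as a result about the members.

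Of the other lists, none had a gene past the threshold in the pooled average, run 1 or run 2. In run 1 the median difference was -0.34 for mitochondrial ribosomal proteins and -0.0029 for elongation factors. It was 0.05 for initiation factors, 0.05 for other TOP mRNAs, 0.07 for ribosome biogenesis factors, 0.04 for RNA polymerases I and III and 0.15 for regulators of ribosomal protein synthesis. Fau differed by -0.56 (SE 0.35) in run 1, close to the member median. Eef1a1 differed by 0.20 (SE 0.53) and Eef2 by 0.27 (SE 0.33), and neither passed the threshold.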

How the data were processed

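The deposited table holds TPM values for 23420 genes and 677 single-cell SMART-Seq2 libraries. Per the submitters' processing notes, the authors used Bowtie, TopHat and RSEM, with no versions; the genome build is not given in the sources used here. The labels also name a 10X Genomics kit, whose use was not analysed here. The TPM of each deposited cell sum to about the same total, so depth is unknown and counting intervals are not given; genes above 0 TPM per cell ran from 3662 to 10472. Run, mouse code and cell type came from the titles, and 0 columns were left over. Unless stated, no cell was removed and no doublet caller was run.

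Mean TPM per animal and cell type was taken as log2(TPM + 1), averaged without weights over 6 types, none of which had under 10 cells in an animal, and tested in R 4.3.3 with limma 3.58.1 (eBayes with an intensity trend, two-sided). Within a single run, the profile of a type in an animal rested on as few as 3 cells. Fold differences on the log2(TPM + 1) scale understate changes of low genes. Filters, comparisons and adjustment are given with the results. The steps were tested on simulated data, with the cells of each type redrawn from all animals within a run. The redrawing removes differences between animals, so it does not check how such differences act on the tests. The numbers 1 and 2 are shared by the genotypes, but same-numbered animals did not deviate together (correlation -0.13), so no pairing was used. Copies were found with blastn 2.17.0+ against GENCODE M21 transcripts, and promoters came from RefSeq. Genes were named by a fixed rule: the smallest p among members whose genotypes did not overlap, the extremes of level, detection and Enterocyte minus Stem difference, members over 3 scaled deviations from the median, and Rps27, Rps27l, Rpl22, Rpl22l1, Rplp0, Rplp1, Rplp2, Rpsa and Rpl38. Genes of other lists, Rps18, Rpl15, Rps21, Rpl17 and the copies were chosen after values were seen. The members, lists and tests were chosen with earlier results of these data known. Alternatives were other pseudocounts, filters, scalings, averages, cell filters, a length trend removed, a replicate block, run as a covariate and leaving out each animal. Those that left out Rn45s and Gm20594, summed copies, left out cells with Paneth transcripts, crossed the pairing, or left out the run 1 cells of KO 2 from the cell type levels were added after the data had been seen. Some genes that these rules name are not reported here.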

Additional observations from a re-analysis of the deposited data

Results flagged for a closer look

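In 5 members both KO animals lay below both WT animals in run 1 and above them in run 2. That is 6.02% of the members, against 1.64% of all kept genes. In run 1 alone 55 of the 83 members lay below (13.5% of all genes), and in run 2 alone 6 lay above (13.7%). Whether more members reversed than these separate shares give was not tested. The reverse order, above in run 1 and below in run 2, held for 5.71% of all kept genes. All members with opposite sides in the runs were below in run 1. Run 1 minus run 2 of the KO minus WT difference was -1.54 for Rps25, -1.41 for Rps12, -1.20 for Rps14, -1.13 for Rps21 and -0.69 for Rpl31, and limma's test of that difference gave adjusted p-values of 0.862 for each. KO 2 was the lowest animal of run 1 in all 5.

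Of 50 sets of 4 animal values looked at, 3 had an animal farther from the others than Dixon's 95% critical value allows, and chance flags about 1 in 20. These were the ribosomal protein share of enteroendocrine cells in KO 1 (13.7% of TPM, from run 1 cells alone), the Enterocyte minus Stem difference of Rpl12 in KO 1 (-1.28) and that of Rps19bp1 in WT 2 (-0.14).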

How the results depend on the processing

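With 2 animals per genotype, 1 animal can make or end a call, and TPM without counts leave the depth unknown. Of the results that answer a comparison, 444 values under the alternatives moved by no more than the spread between animals (counts, by no more than 1.5 times) and 33 moved by more. The cause was not tested.

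In the pooled average, the median was -0.074 after quantile normalization, and 1 member was lower with cells of at least 5000 genes, with the length trend removed, without Rn45s and Gm20594, and 0 to 1 with an animal left out. In run 1, 1 member was lower under these settings and quantile normalization, and 0 to 70 with an animal left out. The 1 member was Rps27. The scaling without Rn45s and Gm20594 moved the run 1 median of all genes to 0.23, against 0.09. The run 2 member median ran from -0.05 (without WT 1) to 0.24 and was also negative, -0.03, without KO 2. The enterocyte median ran from -0.021 (without KO 1) to 0.24. The median of run 1 minus run 2 ran from -1.40 to -0.14 over its alternatives, the highest being without KO 2. Leaving out an animal gave 0 to 49 lower members in TA cells, 0 to 1 in late progenitors and a median down to -0.40 in early progenitors. Without the run 1 cells of KO 2, 1 member was lower in late progenitors (0.0147% of all genes called) and the goblet median was -0.35.

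Same-numbered animals had correlated deviations of -0.13 (pooled), -0.04 (run 1) and 0.02 (run 2). The replicate block gave 0 lower members in the pooled average, run 1 and run 2, and 1 each in stem, TA and goblet cells, against 0. All genes called with it numbered 2 in the pooled average, 0 in run 1, 19 in run 2, 5 in stem, 6 in TA, 7 in enterocyte and 18 in goblet cells. The crossed pairing gave 7 lower members among 59 genes called.

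Between types, averaging log values gave -1.51 in enterocytes and -1.28 in goblet cells. Rescaling without the members gave -0.61 in early progenitors, -0.84 in late progenitors and -1.41 in enterocytes. The early progenitor median was also -0.56 with cells of at least 5000 genes or without Rn45s and Gm20594, -0.45 in run 1 alone and -0.46 without the run 1 cells of KO 2. Members wholly below in enterocytes numbered 32 in run 1 alone, against 76, with no share of all kept genes given for run 1 alone.

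Some single genes changed sign. With an animal left out, the pooled Rpl22l1 difference ran from -0.60 to 0.0036, and in run 1 Rplp0 from -0.43 to 0.056 and Rpsa from -0.50 to 0.19, each lowest without KO 1 and highest without KO 2. In run 2, Rps27 ran from -1.14 (without WT 1) to 1.78 (without WT 2), Rps4y2 from -0.93 (without WT 1) to 0.12 (without WT 2) and Rpl21 from -0.22 (without KO 2) to 0.017 (without KO 1). Quantile normalization gave 0.051 for Rplp0 and 0.20 for Rpsa in run 1. The Enterocyte minus Stem difference of Rps19bp1 was -0.16 rescaled without the members, -0.20 with cells of at least 5000 genes, -0.10 in run 2 alone, -0.024 in WT animals alone and -0.044 without the run 1 cells of KO 2.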
